A study of Mus musculus with 12 samples.

Results

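Klrd1 and Klra3 are killer lectin-like receptor genes, which are best known from natural killer (NK) cells, and both were read here in sorted macrophages of mouse skin. They were described with 7 other genes: the receptor genes Klra2, Klrk1 and Klrc1, and Ncr1, Eomes, Prf1 and Gzmb, which belong to the NK lineage. These 9 members were listed by name, and each was read from a probe set on which its symbol stood alone. They are 9 of 19938 genes in the table, each with 1 probe set. Klrd1 and Klra3 were chosen by their log2 values over these arrays, so their levels and differences are a description without a test. The other 7 members were tested.

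The study profiled total RNA of melanophages, which are macrophages filled with melanin, and of other macrophages from the skin of untreated wild-type C57BL/6 (B6) mice kept SPF. Flow cytometry split each kind into MHC-II-negative and MHC-II-positive cells, which gave 4 groups with 3 arrays each. All cells came from 1 gate that asked for CD11b and CD64 and left out cells with CD24, CCR2 or Ly6C, and melanophages were high in side scatter (SSC-A). For macrophages the labels disagree on side scatter, and neither age, pooling nor the number of animals is stated, so p-values cover the spread among arrays alone, and that spread may be technical.

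Killer lectin-like receptors are surface proteins encoded side by side in the NK gene complex, and they tell a cell whether its neighbour carries MHC class I or stress-induced ligands. The product of Klrd1, CD94, forms pairs with NKG2 proteins such as that of Klrc1, and the pairs bind the class Ib molecule Qa-1. Klra genes encode the Ly49 receptors, Klrk1 an activating receptor that signals through the adaptors Hcst and Tyrobp, and Klrb1b an inhibitory receptor for the product of Clec2d. Ncr1 is an activating receptor, Eomes a transcription factor of NK cells, and Prf1 and Gzmb encode perforin and granzyme B of the killing granules.

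Promoter sequences are shown for the receptor genes that were higher in MHC-II-positive cells beside Klrd1 (Klrk1, Klrb1b and Klra17) and for Klra3, which was not. Each is the 250 bases before the start of the gene in RefSeq (build GRCm38.p6, minus strand, written 5′ to 3′), at chr6:129623865-129624114 for Klrk1, chr6:128826316-128826565 for Klrb1b, chr6:129876673-129876922 for Klra17 and chr6:130337627-130337876 for Klra3. Capitals mark matches to 7 motifs searched on both strands.
Klrk1: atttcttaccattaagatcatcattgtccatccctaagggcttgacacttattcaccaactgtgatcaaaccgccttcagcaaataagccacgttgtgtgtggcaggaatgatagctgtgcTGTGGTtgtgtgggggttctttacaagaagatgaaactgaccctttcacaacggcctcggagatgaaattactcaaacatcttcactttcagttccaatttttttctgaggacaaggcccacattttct
Klrb1b: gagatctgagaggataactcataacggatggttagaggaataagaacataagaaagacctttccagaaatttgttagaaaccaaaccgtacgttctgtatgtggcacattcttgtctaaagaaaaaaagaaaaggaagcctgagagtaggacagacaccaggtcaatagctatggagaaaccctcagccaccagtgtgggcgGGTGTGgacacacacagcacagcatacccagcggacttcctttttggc
Klra17: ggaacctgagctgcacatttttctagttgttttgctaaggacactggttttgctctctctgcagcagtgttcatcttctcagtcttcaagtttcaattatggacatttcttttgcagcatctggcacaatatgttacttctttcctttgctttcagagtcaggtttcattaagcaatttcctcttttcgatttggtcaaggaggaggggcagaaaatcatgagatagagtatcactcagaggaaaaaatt
Klra3: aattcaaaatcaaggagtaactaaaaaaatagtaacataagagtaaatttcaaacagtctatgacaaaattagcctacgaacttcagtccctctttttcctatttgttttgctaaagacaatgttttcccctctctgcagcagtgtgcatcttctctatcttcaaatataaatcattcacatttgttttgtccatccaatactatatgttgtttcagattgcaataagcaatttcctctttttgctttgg
The Klrk1 promoter held 1 match, to the RUNX motif TGTGGT, which stands in 14.2% of 27025 promoters of this length. The Klrb1b promoter held 1 match, to the T-box motif GGTGTG, which stands in 16.2%. Neither Klra17 nor Klra3 held any of the 7, the others being an ETS and PU.1 core GAGGAAG (in 10.4% of promoters), AP-1 TGANTCA (6.87%), a Y box ATTGGC (14%) and the longer IRF pair (3.04%) and NF-kB (1.4%) motifs. The RUNX and T-box letters can share bases, and a match describes the letters in this window only. Of the 9 members, 8 had a promoter entry, and Klrb1b has 2 starts in the table, of which the first was used.

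Klrd1 was near the floor in MHC-II-negative cells and high in MHC-II-positive cells of both kinds. Its log2 values were 6.24, 7.25 and 7.31 in MHC-II-positive melanophages and 6.17, 6.74 and 6.85 in MHC-II-positive macrophages. They were 3.13, 3.23 and 2.77 in MHC-II-negative melanophages and 3.03, 2.76 and 2.60 in MHC-II-negative macrophages. Array medians over all probe sets lay between 2.97 and 3.08, so the MHC-II-negative values sat around the level at which most probe sets lie. Every MHC-II-positive array was above every MHC-II-negative array, and within an MHC-II class the arrays of both cell kinds overlapped.

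**Figure D1:**
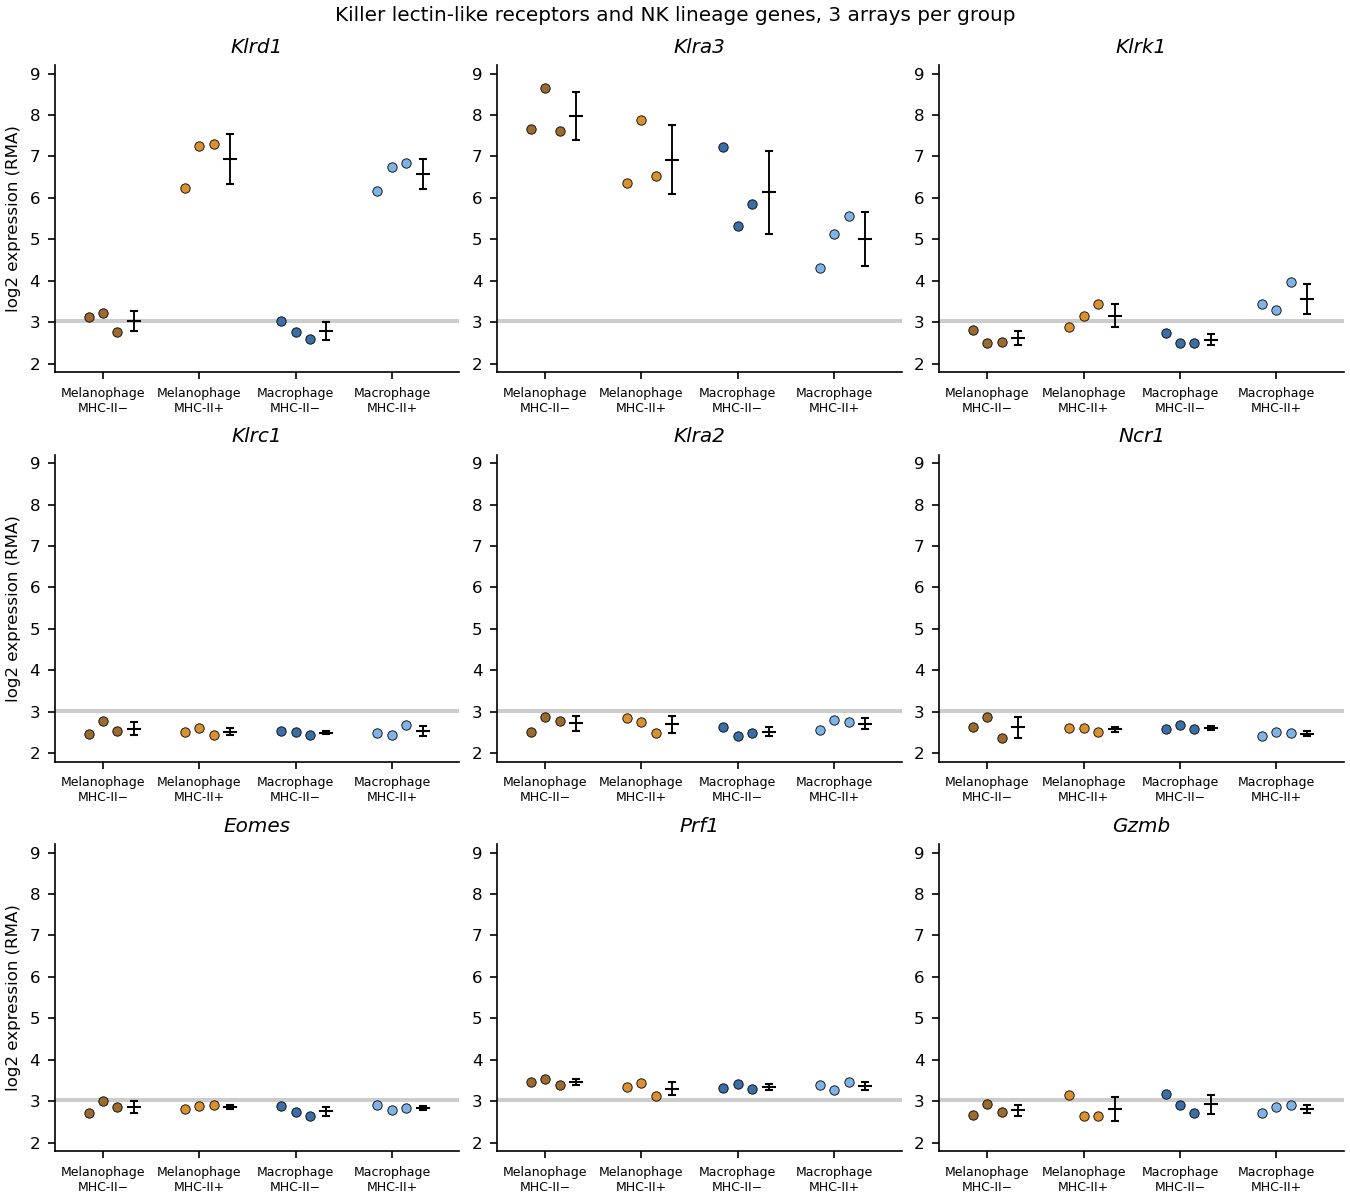
Log2 expression of the 9 members on each of the 12 arrays, 3 per group. Points are arrays, the bar beside them is the group mean ± SD (n = 3), and the grey band spans the array medians (2.97 to 3.08). Klrd1 splits by MHC-II class, Klra3 is lower in macrophages, Klrk1 shows a small MHC-II difference, and the other 6 genes stay between 2.38 and 3.55.

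The difference between MHC-II classes in Klrd1, averaged over cell kind, was 3.84 ± 0.20 on the log2 scale (SE of the fit), a 14.3-fold difference. It was 3.89 ± 0.28 in melanophages and 3.79 ± 0.28 in macrophages, and the interval of the difference between these values ran from -0.78 to 0.98 (95%). Because the lower groups lay around the array medians, these folds are lower bounds. In such sorted bulk samples, fewer cells that express a gene and less RNA per cell cannot be told apart. Between cell kinds, Klrd1 differed by 0.30 ± 0.20 (melanophages minus macrophages).

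Klra3, which encodes an inhibitory Ly49 receptor for MHC class I, was detected in all 4 groups and ran along the other axis of the sort. Its log2 values were 7.66, 8.65 and 7.62 in MHC-II-negative melanophages and 6.35, 7.89 and 6.53 in MHC-II-positive melanophages. They were 7.24, 5.31 and 5.85 in MHC-II-negative macrophages and 4.31, 5.13 and 5.58 in MHC-II-positive macrophages. Melanophages were above macrophages on every array within each MHC-II class.

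The Klra3 group mean was highest in melanophages without MHC-II (7.98 ± 0.58, SD, n = 3), then came melanophages with MHC-II (6.93 ± 0.84), macrophages without it (6.14 ± 0.99) and macrophages with it (5.01 ± 0.64). Each neighbouring pair in that order overlapped in its arrays. The difference between cell kinds, averaged over MHC-II class, was 1.88 ± 0.40 (SE), a 3.68-fold difference, with 1.84 ± 0.56 in cells without MHC-II and 1.92 ± 0.56 in cells with it. The MHC-II difference was -1.09 ± 0.40, opposite in sign to that of Klrd1. Over all genes, 0.707% were higher in melanophages without overlap in both MHC-II classes. Klra3 was chosen by its values on these arrays, so it is not counted against that share. No other gene among the 22 of the family was higher in this way.

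The MHC-II-negative macrophage array at 7.24 was also the array least like its group mates over all genes (mean r = 0.972), and the third MHC-II-positive macrophage array was next (0.978). Without both of these arrays the Klra3 difference between cell kinds was 2.30, and the MHC-II difference of Klrd1 stayed between 3.74 and 4.01 over all alternatives. Ly49 genes are near-identical in sequence, so the share of the signal that belongs to Klra3 itself is uncertain. 4 probe sets carried several Klra symbols, and 3 of them listed Klra3. The brightest had means of 3.68 ± 0.47 and 3.60 ± 0.18 (SD, n = 3) in melanophages without and with MHC-II, against 2.72 ± 0.21 and 2.40 ± 0.22 in macrophages. In the dimmest of the 3 they were 2.90 ± 0.23 and 2.57 ± 0.07, against 2.56 ± 0.23 and 2.32 ± 0.12. There melanophages with MHC-II and macrophages without it were nearly equal. The other probe set, which did not list Klra3, stayed between 2.32 and 2.44 in its group means.

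Klrk1 was the only one of the 7 tested members that passed the test between MHC-II classes. Its log2 values were 2.82, 2.51 and 2.53 in MHC-II-negative melanophages against 2.89, 3.15 and 3.44 in MHC-II-positive ones. In macrophages they were 2.74, 2.51 and 2.50 against 3.44, 3.29 and 3.96. MHC-II-positive arrays were higher without overlap in both kinds, although most values lay near the array medians. Averaged over cell kind, Klrk1 rose by 0.76 ± 0.13 (1.70-fold, limma adjusted p = 0.0267), against 0.632% of all genes called higher.

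The Klrk1 difference was 0.98 ± 0.19 in macrophages (adjusted p = 0.0658) and 0.54 ± 0.19 in melanophages (adjusted p = 0.647), and neither passed alone (limma). Background shares of genes called higher were 0.311% in macrophages and 0.201% in melanophages. The averaged call was lost in 6 of 12 fits that each left out 1 array: replicate 2 or 3 of either MHC-II-negative group or of MHC-II-positive melanophages, with adjusted p up to 0.0834.

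Klrc1 and Klra2 gave no such difference. Klrc1, the inhibitory partner of CD94, lay between 2.45 and 2.77 on all arrays, with an MHC-II difference of -0.02 (95% interval -0.17 to 0.13, limma adjusted p = 0.960). Klra2, another Ly49 gene, lay between 2.42 and 2.87, with a difference of 0.09 (-0.11 to 0.29, adjusted p = 0.821). Klrc2 and Klrc3, which encode activating partners of CD94, lay between 2.24 and 2.46 and between 1.96 and 2.33. High Klrd1 was therefore measured with all 3 Klrc genes below the array medians.

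None of the 4 lineage members passed the test that Klrk1 passed, and their values lay between 2.38 and 3.55 on all 12 arrays. Ncr1 ranged from 2.38 to 2.88 and differed by -0.09 between MHC-II classes (95% interval -0.27 to 0.08, limma adjusted p = 0.765). Eomes ranged from 2.66 to 3.02 and differed by 0.04 (-0.10 to 0.19, adjusted p = 0.878). Prf1 ranged from 3.14 to 3.55 and differed by -0.06 (-0.21 to 0.08, adjusted p = 0.820), and Gzmb ranged from 2.64 to 3.17 and differed by -0.04 (-0.28 to 0.21, adjusted p = 0.951). Their upper interval bounds were at most 0.21, against a difference of 3.84 for Klrd1.

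Between cell kinds, none of the 7 tested members was called (limma, smallest adjusted p = 0.811), and 0 of the 7 had an unadjusted p under 0.05. Their differences ran from -0.18 to 0.10. The count was also 0 of 7 in MHC-II-negative cells (0.00502% of all genes) and in MHC-II-positive cells (0.015%), and 0 of 7 had an unadjusted p under 0.05 in either class, where 5.65% and 6.3% of all genes did. On average over both classes, 0.12% of all genes were called and 7.52% had an unadjusted p under 0.05.

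**Figure D2:**
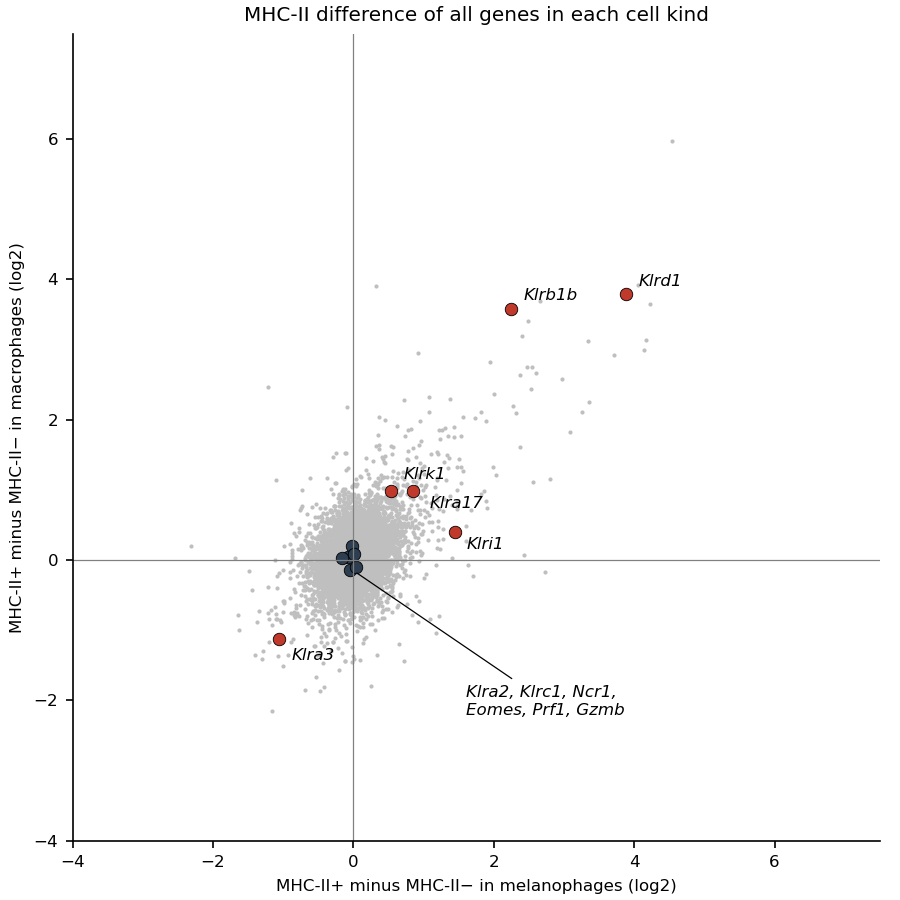
Log2 difference between MHC-II-positive and MHC-II-negative cells in melanophages (horizontal) against macrophages (vertical) for 19938 genes (grey), with Klrd1, Klra3, Klrk1, Klrb1b, Klra17 and Klri1 in red and Klra2, Klrc1, Ncr1, Eomes, Prf1 and Gzmb dark. Klrd1 lies at 3.89 and 3.79 and Klrb1b at 2.25 and 3.58, while Klra3 is negative on both axes and the dark points lie around 0.

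The wider receptor family was read from 22 of 38 listed genes. Without Klrd1 and Klra3, 3 of 20 were called higher in MHC-II-positive cells averaged over cell kind and 0 lower, against 0.632% and 0.13% of all genes. These were Klrb1b, Klra17 and Klrk1. The same 3 of 20 had arrays that were higher without overlap in both cell kinds, against 1.11% of all genes. Klrd1 did too, but it was chosen by its values and is not counted. The family's median difference was 0.01, beside -0.02 for all genes, and 18 of the 22 stayed under 4 on all arrays.

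Klrb1b was the family gene with the next largest MHC-II difference after Klrd1. Its values were 3.31, 3.09 and 3.13 in MHC-II-negative melanophages and 5.23, 4.66 and 6.38 in MHC-II-positive ones. In macrophages they were 3.19, 3.23 and 3.39 against 5.93, 6.90 and 7.71. The classes did not overlap in either kind. Averaged, Klrb1b rose by 2.91 ± 0.32 (7.53-fold, limma adjusted p = 0.0017). Its MHC-II-negative values, 3.09 to 3.39, lay just above the array medians.

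In macrophages alone the Klrb1b rise was 3.58 ± 0.45 (11.96-fold, limma adjusted p = 0.00605). In melanophages the difference was 2.25 ± 0.45 and did not pass (adjusted p = 0.134). The test of whether the MHC-II difference differed between kinds gave -1.34 ± 0.64 (melanophages minus macrophages, limma adjusted p = 0.9996). No gene was called in that test (0% of genes), and 4.11% had an unadjusted p under 0.05.

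Klra17, a Ly49 gene known from plasmacytoid dendritic and other myeloid cells, had values of 2.42, 2.55 and 2.46 in melanophages without MHC-II and 3.27, 3.30 and 3.39 in those with it. In macrophages they were 2.52, 2.34 and 2.40 against 2.93, 3.77 and 3.49. The classes again did not overlap, at low levels. Averaged, Klra17 rose by 0.91 ± 0.12 (1.88-fold, limma adjusted p = 0.00465). It passed in macrophages alone (0.98 ± 0.17, adjusted p = 0.0405), a call that was lost in 11 of 12 fits that left out 1 array, and not in melanophages (0.85 ± 0.17, adjusted p = 0.127).

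**Figure D3:**
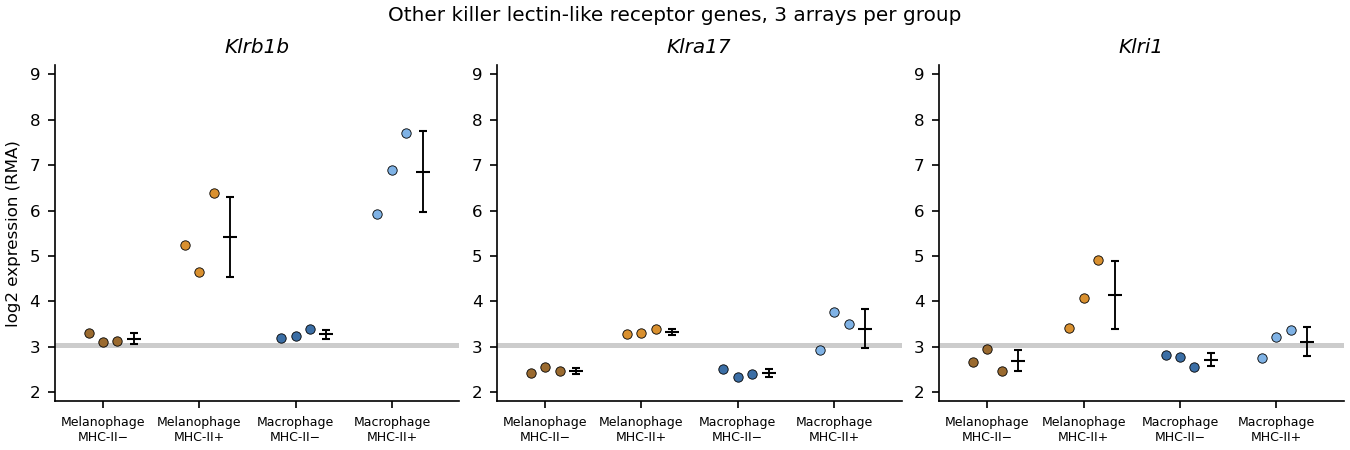
Log2 expression of Klrb1b, Klra17 and Klri1 on each of the 12 arrays, with group means ± SD (n = 3) and the array medians as a grey band. Klrb1b and Klra17 are higher in both MHC-II-positive groups, and the highest Klri1 values, up to 4.91, are in MHC-II-positive melanophages.

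Klri1, named here after its values were seen, was the only other family gene that reached 4. Melanophages with MHC-II had values of 3.41, 4.08 and 4.91 and those without it 2.66, 2.94 and 2.48. The macrophage values were 2.75, 3.22 and 3.36 with MHC-II and 2.81, 2.78 and 2.55 without it. The classes were apart in melanophages and overlapped in macrophages. The averaged difference of 0.92 ± 0.22 did not pass (limma adjusted p = 0.124), nor did that in melanophages (1.44 ± 0.31, adjusted p = 0.179). Klre1, whose product pairs with that of Klri1, stayed between 2.41 and 2.71.

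On chromosome 6 the called genes were not neighbours throughout. The order was read for the 22 matched family genes only, and listed genes that were not matched are left out of it. In this RefSeq order Klrd1 lies between Klre1 and Klrk1, with Klrc3, Klrc2 and Klrc1 beyond Klrk1. None of these Klrc genes or Klre1 was called. Klra17 stands at the near end of the matched Ly49 genes. Among these, Klra3 comes between Klra8 and Klra2, which were not called either, and Ly49 genes without a match may lie between them.

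**Figure D4:**
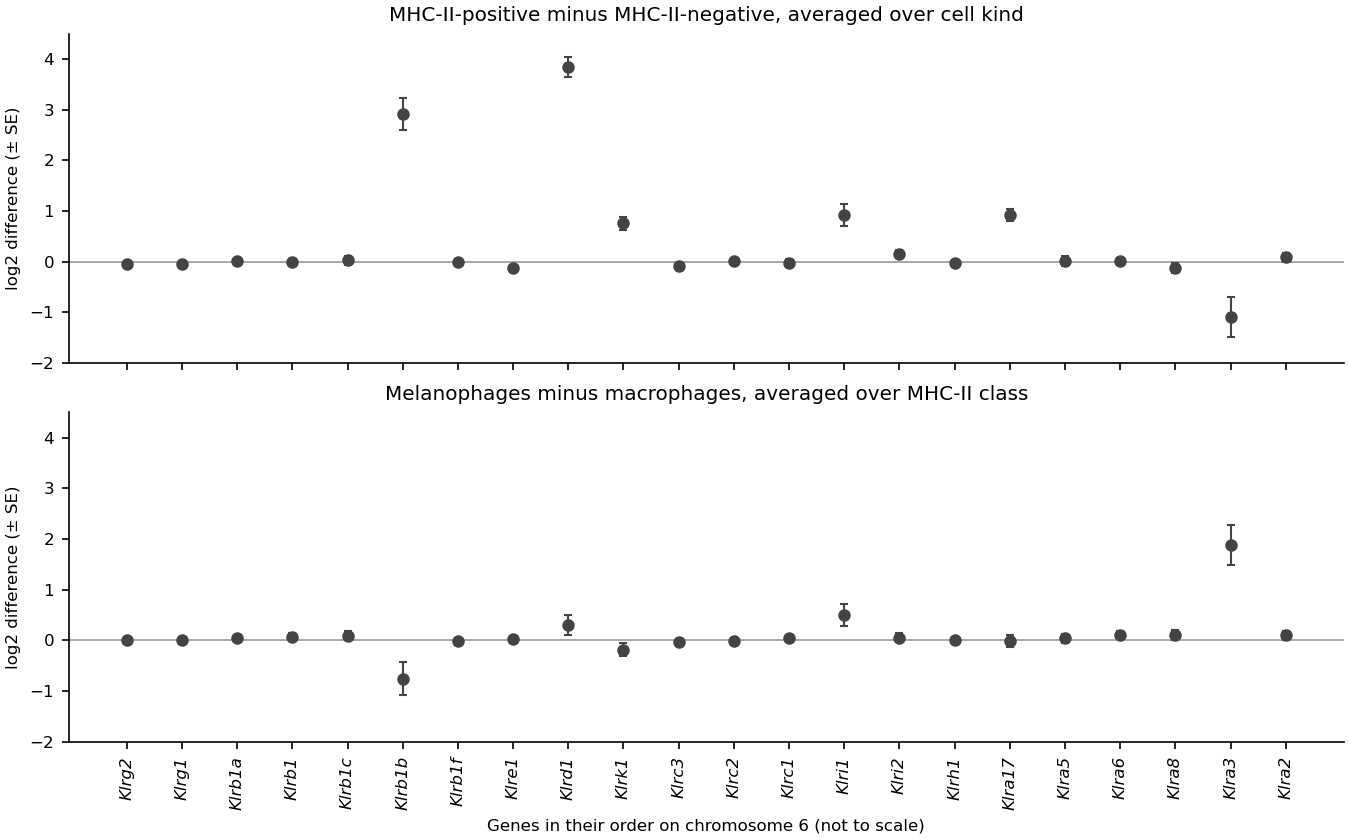
Log2 differences ± SE of 22 receptor family genes in their order on chromosome 6, between MHC-II classes (top) and between cell kinds (bottom), 12 arrays. Klrb1b (2.91), Klrd1 (3.84), Klrk1 (0.76), Klri1 (0.92) and Klra17 (0.91) stand above 0 at the top, and Klra3 is at -1.09 at the top and 1.88 at the bottom.

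The adaptors these receptors signal through were expressed in all groups. Tyrobp (DAP12), the adaptor of activating receptors in NK and myeloid cells, had group means from 11.2 to 11.5 and differed by 0.06 between MHC-II classes (limma adjusted p = 0.889). Hcst (DAP10), the partner of the Klrk1 product, had means from 8.39 to 8.70 and differed by -0.14 (adjusted p = 0.816). Of 11 adaptor and signalling genes 0 were called between MHC-II classes, where 0.632% of all genes were called higher and 0.13% lower, and 0 had an unadjusted p under 0.05, where 9.23% of all genes did, and the smallest adjusted p was 0.623, for the kinase gene Syk. Of the ligands, 6 of 15 were matched and 0 were called, 2 with an unadjusted p under 0.05 against the same 9.23%, with the smallest adjusted p, 0.358, for Cdh1, the E-cadherin bound by the Klrg1 product.

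NK cell markers were low in all groups, although Prf1 (3.14 to 3.55) lay above the array medians on every array and Nkg7 reached 3.63. The 10 defining markers lay between 2.23 and 3.63 on all arrays, and 0 were called between MHC-II classes or had an unadjusted p under 0.05 (limma), where 9.23% of all genes did. Their mean level per array was 2.72 to 2.88 and 2.73 to 2.81 in MHC-II-negative melanophages and macrophages, against 2.75 to 2.84 and 2.70 to 2.79 in the MHC-II-positive groups. Of 24 NK cell genes 23 stayed under 4. Cd244a, a receptor also found on myeloid cells, reached 4.14 and differed by 0.37 (adjusted p = 0.220), the 1 gene of the list with an unadjusted p under 0.05.

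Of other lymphoid genes, 1 of 16 T cell genes and 2 of 8 innate lymphoid genes were called between MHC-II classes. An unadjusted p under 0.05 (limma) was found for 4 of the 16 and 3 of the 8, where 9.23% of all genes had it. The T cell genes that reached 4 were Thy1, Cd2, Cd4 and Cd28. Of 16 T cell genes, Cd2, an adhesion molecule, rose by 1.37 ± 0.13 (limma adjusted p = 0.000454), against 0.632% of all genes called higher, and 12 stayed under 4. The Cd2 rise passed within melanophages (1.89 ± 0.18, adjusted p = 0.00146), and the smaller rise within macrophages did not (0.84 ± 0.18, adjusted p = 0.114). The mean level of that list was 3.31 to 3.43 over the MHC-II-negative and 3.32 to 3.45 over the MHC-II-positive arrays. Of 8 innate lymphoid genes, Il7r, a cytokine receptor, rose by 1.94 ± 0.25 (adjusted p = 0.00406) and Ahr, a ligand-activated transcription factor, by 1.05 ± 0.13 (adjusted p = 0.00354). The Il7r rise passed within macrophages (2.95 ± 0.35, limma adjusted p = 0.00423), and the smaller rise within melanophages did not (0.93 ± 0.35, adjusted p = 0.737). The test of whether the MHC-II difference differed between kinds did not pass for Cd2 or for Il7r (limma adjusted p = 0.9996 for both). The part of Cd2, Il7r and Ahr in the Klrd1 difference was not tested. Of 11 mast cell and basophil genes 0 were called, 3 with an unadjusted p under 0.05 (9.23% of all genes) and the smallest adjusted p, 0.336, for Hdc.

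Some dendritic cell genes were also higher in MHC-II-positive cells. Of 18, 5 were called higher on average over cell kind and 13 did not pass (limma), against 0.632% of all genes called higher: Ccl22, a chemokine (2.19 ± 0.14, adjusted p = 4.04e-05), the homing receptor Ccr7 (1.97 ± 0.27), the lectin Mgl2 (1.33 ± 0.26), Itgax, which encodes CD11c (1.26 ± 0.11), and langerin, Cd207 (1.20 ± 0.15). The Mgl2 call (adjusted p = 0.0466) was kept in 1 of 12 fits that left out 1 array, the one without replicate 3 of MHC-II-negative macrophages. Itgax and Cd207 passed within macrophages (1.91 ± 0.16, limma adjusted p = 0.000602, and 2.04 ± 0.21, adjusted p = 0.00226). Within melanophages they did not pass (0.62 ± 0.16, adjusted p = 0.334, and 0.36 ± 0.21, adjusted p = 0.939). The test of whether the MHC-II difference differed between kinds passed for neither (limma adjusted p = 0.966 for both). On average over both MHC-II classes, the 2 genes were called lower in melanophages than in macrophages. The differences were -1.16 for Cd207 (limma adjusted p = 0.0262) and -0.80 for Itgax (adjusted p = 0.0404). Of all genes, 0.12% were called there, and these calls were kept in 5 and 3 of 12 fits that left out 1 array. The mean level of the list was 4.10 to 4.31 and 4.28 to 4.45 in the MHC-II-negative melanophages and macrophages, against 4.65 to 4.83 and 5.13 to 5.18 in the MHC-II-positive groups. 5 of the 18 stayed under 4 on all arrays. The level was higher in MHC-II-positive macrophages than in MHC-II-positive melanophages. The part of these genes in the Klrd1 difference was not tested.

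All 14 macrophage genes matched reached 4 on at least 1 array of every group. The mean level of the list lay between 8.93 and 9.44. On average over both MHC-II classes, Cx3cr1 was called lower in melanophages than in macrophages (-1.54 ± 0.23, SE, limma adjusted p = 0.0433). The other 13 did not pass, and 0.12% of all genes were called there. The Cx3cr1 call was kept in 2 of 12 fits that left out 1 array. None of the 14 was called between MHC-II classes (4 with an unadjusted p under 0.05, smallest adjusted p = 0.0618, for Cd14), where 0.632% of all genes were called higher, 0.13% lower and 9.23% had an unadjusted p under 0.05. The gate was CCR2-negative, yet Ccr2 RNA had means of 6.75 ± 0.39 and 7.11 ± 0.53 (SD, n = 3) in melanophages and macrophages with MHC-II, where those without it had 3.40 ± 0.31 and 3.99 ± 0.27. Its MHC-II difference was 3.23 ± 0.20 (SE), in the same arrays as that of Klrd1, and its part in it was not tested.

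**Figure D5:**
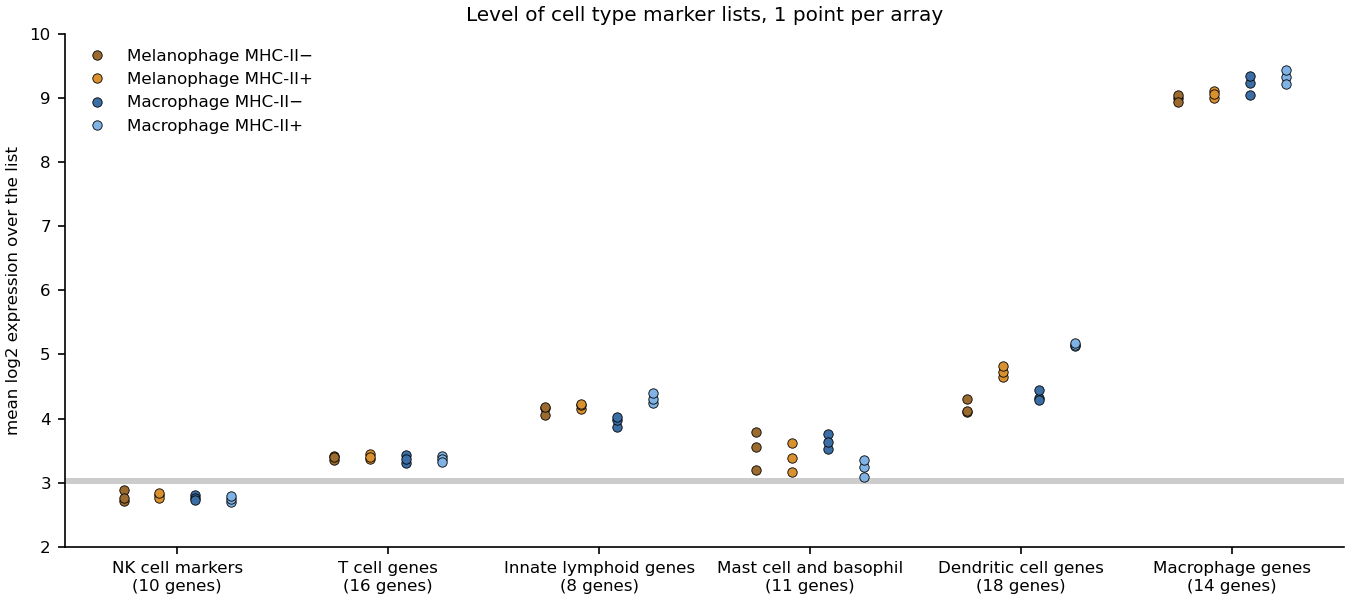
Mean log2 expression over each list of cell type markers, 1 point per array, 3 arrays per group, with the array medians as a grey band. NK cell markers lie below 2.9 on every array, dendritic cell genes are higher in both MHC-II-positive groups, and macrophage genes lie between 8.93 and 9.44.

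Genes most like Klrd1 over the 12 arrays were Tnip3 (Pearson r = 0.974, Spearman rho = 0.909), Malt1 (0.966 and 0.867), Il1b (0.958 and 0.867), H2-Aa (0.957 and 0.818) and Ccl22 (0.956 and 0.790). Tnip3 and Malt1 act in NF-kB signalling, Il1b encodes a cytokine, and H2-Aa encodes a chain of the MHC-II molecule used for the sort. The arrays of Klrd1 form 2 clusters, 1 per MHC-II class. Within the 6 MHC-II-positive arrays r was 0.288 for Tnip3, 0.541 for Malt1, 0.496 for Il1b, 0.344 for H2-Aa and -0.229 for Ccl22. Within the 6 MHC-II-negative arrays it was 0.872, 0.149, 0.345, 0.260 and 0.776 in the same order. Of 19937 genes compared, 28 had r above 0.9. The genes named first were picked with gene models and some receptor classes left out, whereas ranks are over all genes compared. Klra17 ranked 10 (0.942), Klrb1b 43 (0.883) and Klrk1 66 (0.850), while Ncr1 had r = -0.312.

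Genes most like Klra3 were Uchl3 (Pearson r = 0.936, Spearman rho = 0.895), a deubiquitinating hydrolase, Acot13 (0.930 and 0.937), an acyl-CoA thioesterase, Ttn (0.929 and 0.874), Wfdc17 (0.924 and 0.937) and Cnrip1 (0.921 and 0.930). Within the MHC-II classes, each of which still holds both cell kinds, r ran from 0.893 to 0.993 over 6 MHC-II-positive and from 0.885 to 0.961 over 6 MHC-II-negative arrays. Ttn varied only between 2.73 and 2.84. Klrd1 and Klra3 had r = -0.317 and rho = 0.021 with each other over all arrays, and r = 0.667 and 0.792 within the MHC-II-positive and MHC-II-negative arrays. All these points share the array and its normalization, and the correlations are a description.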

How the data were processed

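Log2 expression values as deposited by the authors were used. They were made with RMA and the oligo package, per the submitters' processing notes, with versions not given in the sources used here. Per the labels, 3 to 20 ng of RNA was amplified and biotinylated for Affymetrix-type arrays. RMA summarises the probes of a probe set on the log2 scale, which compresses differences of dim genes. The members and gene lists were chosen with earlier results of these data known.

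Of 35556 probe sets, 21789 carried 1 symbol in the platform annotation, 1621 several and 12146 none. The probe set with the highest mean stood for a gene (19938 genes, 999 with more than 1). All 12 arrays entered 1 fit in limma 3.58.1 (R 4.3.3; lmFit, eBayes, 4 group means, 8 residual degrees of freedom), with Benjamini-Hochberg adjustment over all genes, two-sided, called under 0.05. The code was tested on simulated data. No 2 arrays among 66 pairs were identical. The number of arrays limits the precision.

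Named were all members, per list up to 4 called genes or the one with the smallest adjusted p, the 5 genes most correlated with Klrd1 and with Klra3, and sort markers. Consecutive codes in the titles form 3 runs, each with 1 array of every group. Within runs, deviations from the group means had a median correlation of -0.026 over 18 pairs (-0.248 to 0.27). This does not settle whether the runs pair the arrays, and the main fit did not pair them. Alternatives were normalization, probe set choice, a dim filter, moderation, weights, samples fitted, the runs as a block and each array left out.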

Additional observations from a re-analysis of the deposited data

Results flagged for a closer look

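Klrb1f, a receptor gene of the Klrb1 group, moved in opposite directions with MHC-II class: every MHC-II-positive array lay above the MHC-II-negative ones in melanophages and below them in macrophages. The difference between these effects was 0.33 ± 0.13 on the log2 scale (melanophages minus macrophages, 12 arrays), and it did not pass over all genes (limma adjusted p = 0.9996). All its values lay between 2.36 and 2.77, below the array medians. In melanophages the closest arrays of the MHC-II classes were nearly equal, at 2.493 with MHC-II and 2.490 without it. The share of all genes with opposite separation in the cell kinds was not counted, so the pattern is a description only.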

How the results depend on the processing

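Over 23 alternatives no called value of the members or family genes changed sign. The MHC-II rise of Klrb1b, averaged over cell kind, was called in 22 of 22 alternatives that tested it and that of Klra17 in 21 of 21, and Klrk1 in 14 of 21. Of the 7 tested members, 1 was called in that comparison. The count was 0 when every probe set was fitted, where Klrk1 missed the threshold, and 0 to 1 when each array was left out in turn. Within macrophages 0 members were called, and 1 with trend and robust moderation and 1 with array weights (Klrk1 both times).

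Of the 20 tested family genes, 3 were called between MHC-II classes on average, 2 to 4 with each array left out, and 1 under the filter on dim genes, which left only Klrb1b to be tested. Within melanophages the count was 0, and 1 under the dim filter, 2 with trend and robust moderation, 1 with only the groups compared, and 0 to 1 with each array left out. Within macrophages it was 2, and 1 with every probe set, 1 under the dim filter, 0 with only the groups compared, 1 with the runs of title codes as a block, 1 without both far macrophage arrays (added after seeing the data) and 1 to 2 with each array left out. Apart from the results named here, the other settings kept these counts within 1.5 times. Comparisons between cell kinds and the interaction gave 0 under all alternatives run. The dim filter tested no member other than Klrd1 and Klra3, and signals near the array medians limit what a difference can show.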
